A study of Mus musculus with 10 samples.

Results

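Hyper-organoids are mouse small intestinal organoids grown in an 8-component medium, and they were sequenced at passage 1 (p1), passage 3 (p3) and passage 6 (p6), with 1 droplet-based single-cell library per passage. The cells described here are those of the 3 Hyper-organoid libraries that the authors' annotation assigns to stem cells (SC) or transit amplifying (TA) cells, the dividing daughters of stem cells. There were 7381 such cells among 8318 kept cells of these libraries and 25204 annotated cells in the series. The SC class held 1126, 874 and 1481 cells at p1, p3 and p6, and the TA class 1406, 841 and 1653 cells.

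The p1 and p6 libraries were made from organoids first grown in the conventional ENR medium, and the p3 library from primary crypts. The labels give no strain, age or sex of the mice. The Hyper medium held 50 ng/mL EGF, 20 ng/mL FGF2 and 10% conditioned medium with R-Spondin 1. It also held the BMP receptor inhibitor LDN193189 at 0.2 µM, the GSK-3 Inhibitor XV at 0.1 µM, the kinase inhibitor Pexmetinib at 1 µM, the histone deacetylase inhibitor VPA (valproic acid) at 500 µM and the EZH2 inhibitor EPZ6438 at 2 µM. As background served 3 ENR-organoid libraries (p2, p3 from primary crypts, and p7; 50 ng/mL EGF, 100 ng/mL Noggin and 500 ng/mL R-Spondin 1) and 2 libraries of -VE-organoids (p1 and p6, derived from ENR-organoids), whose medium lacked VPA and EPZ6438. The p1 and p6 libraries share their origin, and p3 differs from both in it, so that at p3 passage and origin cannot be told apart. By their names the p1, p3 and p6 libraries belong to 3 sets, each with an ENR-organoid library of its own. Passage thus coincides with set in every comparison, p1 against p6 included, and the labels do not say how the sets differ. The labels give neither the founding animals nor whether p1 and p6 are the same culture, and with 1 library per passage no test between passages was possible. The paper recommends a serum replacement to aid expansion of passaged Hyper-organoids, and the labels do not say which libraries received it. Every difference below is a description of these libraries.

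At the base of the intestinal crypt, stem cells that express Lgr5 are kept by Wnt and R-Spondin signals, and TA cells above them divide before they differentiate. After injury, crypt cells can enter a repair state marked by Clu, Ly6a (which encodes SCA1), Anxa1 and the antimicrobial lectins Reg3b and Reg3g. Olfm4 is a secreted glycoprotein of crypt base cells and a usual marker of the homeostatic stem cell.

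Values are given as CPM, the usual depth-scaled count: unique molecular identifiers (UMIs, 1 per captured transcript) of a gene summed over the cells of a class in a library, scaled to all UMIs of that class. The SC sums held 49788463, 36280902 and 51917593 UMIs at p1, p3 and p6. The median SC cell held 42140, 40306 and 33335 UMIs and the median TA cell 56916, 55062 and 46699, so p6 cells were the shallowest. Hyper-organoid libraries shared 2 or 3 cell barcodes per pair. The classes were checked against their markers. Top2a, which is needed for mitosis, had 28.6 CPM in SC and 204 CPM in TA cells at p1. The goblet cell mucin gene Muc2 stayed under 1 CPM in both classes, but other goblet cell markers did not. In SC cells Agr2 had 142, 323 and 263 CPM and Tff3 28.6, 54.1 and 47.3 CPM at p1, p3 and p6. The SC sums were thus not free of goblet cell transcripts. Lgr5 did not separate them, with 161 CPM in SC, 160 CPM in TA and 150 CPM in goblet cells at p1. Markers of tuft, immune and stromal cells together summed to at most 2.59, 6.73 and 2.39 CPM in SC cells of any Hyper-organoid library.

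SC cells took a similar share of each Hyper-organoid library, and TA cells the largest share at p1. SC cells took 40.04% (exact binomial 95% interval 38.2 to 41.9) of kept cells at p1, 44.1% (41.9 to 46.3) at p3 and 42.0% (40.4 to 43.7) at p6. TA cells took 50.0% (48.1 to 51.9), 42.4% (40.2 to 44.6) and 46.9% (45.3 to 48.6). The intervals of p1 and p3 did not overlap, while those of p1 and p6 did. In ENR-organoids the SC share was 14.7%, 9.75% and 12.2% at p2, p3 and p7. These intervals, and all others below, cover counting error only.

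To ask which passage differed from the others, a library was said to stand apart in a gene when it lay at least 2-fold above both or at least 2-fold below both of the other Hyper-organoid libraries, on log2(CPM + 1). In SC cells, 10159 genes reached 5 CPM in a Hyper- or ENR-organoid library. The p1 library stood apart in 111 of them (1.09%), lower in 62 (0.610%) and higher in 49 (0.482%). The p3 library stood apart in 31 genes (0.305%), lower in 14 (0.138%) and higher in 17 (0.167%). The p6 library stood apart in 18 (0.177%), lower in 8 (0.0787%) and higher in 10 (0.0984%). In both classes p1 thus had the most such genes. In TA cells, with 10077 genes measured, p1 stood apart in 109 (1.08%), lower in 62 (0.615%) and higher in 47 (0.466%). At p3 the count was 21 (0.208%), with 11 lower (0.109%) and 10 higher (0.0992%), and at p6 20 (0.198%), with 7 lower (0.0695%) and 13 higher (0.129%).

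The same rule over the 3 ENR-organoid libraries served as background. In SC cells p2 stood apart in 2 genes, both higher (0.0197%), and p7 in 5 (0.0492%), with 1 lower (0.00984%) and 4 higher (0.0394%). The p3 ENR-organoids, from primary crypts, stood apart in 25 (0.246%), with 17 lower (0.167%) and 8 higher (0.0787%). In TA cells the ENR-organoid counts were 1 at p2 (0.00992%), 27 at p3 (0.268%), with 20 lower (0.198%) and 7 higher (0.0695%), and 0 at p7. Among ENR-organoids it was therefore the p3 library that differed most, and among Hyper-organoids the p1 library.

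**Figure D1:**
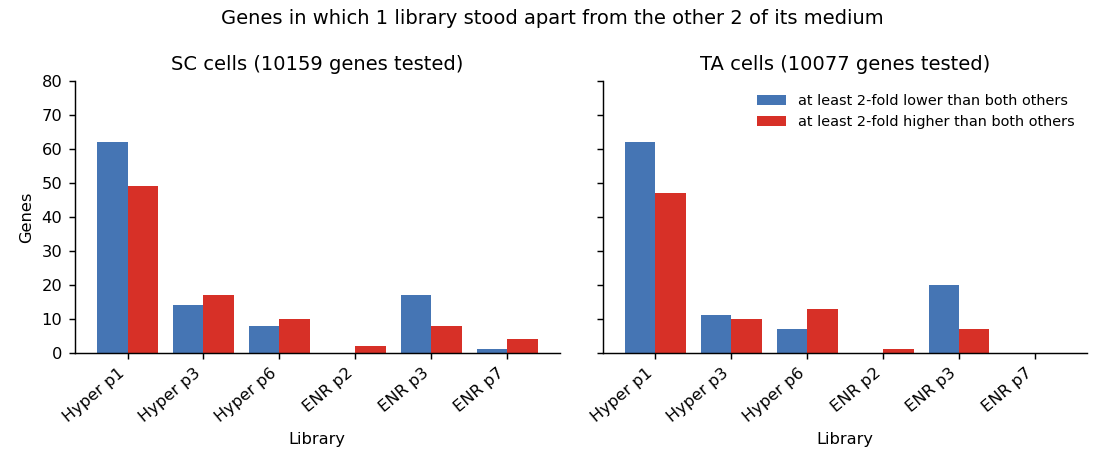
Bars give the number of genes (y axis) in which each library (x axis) lay at least 2-fold below (blue) or above (red) both other libraries of its medium, in SC cells (left) and TA cells (right). The p1 Hyper-organoid library had the tallest bars in both classes, with 62 lower and 49 higher genes in SC cells, and among ENR-organoids the p3 library did, with 17 and 8.

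Of the 62 genes lower at p1 in SC cells, 47 were also lower at p1 in TA cells, 75.8% of either list. Of the 49 genes higher at p1 in SC cells and the 47 in TA cells, 38 were shared, 77.6% and 80.9%. Taken in pairs in SC cells, 97 genes were at least 2-fold higher (0.955%) and 88 lower (0.866%) at p6 than at p1. At p3 against p1, 108 were higher (1.06%) and 93 lower (0.915%). At p6 against p3, 29 were higher (0.285%) and 32 lower (0.315%). For scale, -VE-organoids at p6 against p1 had 17 higher (0.167%) and 41 lower (0.404%), and ENR-organoids at p7 against p2 had 7 higher (0.0689%) and 4 lower (0.0394%). The ENR-organoid pairs with p3 gave more, with 13 higher (0.128%) and 35 lower (0.345%) at p3 against p2 and 45 higher (0.443%) and 19 lower (0.187%) at p7 against p3. The 2 later Hyper-organoid libraries, though of different origin, thus lay closer to each other than either did to p1.

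Promoter sequences were taken from RefSeq (build GRCm38.p6, + strand in all 4 cases) for genes that show the main patterns: Olfm4, which was highest at p1, Ces2a, which was among the lowest at p1, Areg, an EGF receptor ligand gene higher at p1, and Bex4, which was on at all passages. The runs of Ces2a, Areg and Bex4 are the 250 bases before the RefSeq start. That of Olfm4 is the first 199 bases of the same window, ending before an annotated exon that starts ahead of the RefSeq start, and it lies in an intron of a longer GENCODE transcript of the gene. The positions are chr14:80000052-80000250, chr8:104733753-104734002, chr5:91139349-91139598 and chrX:136138746-136138995. Capitals mark a match to the TATA box in Areg and to the core motif of TEAD factors in Bex4, and the other runs hold neither. In the Olfm4 window, kappa B matches on both strands begin 52 and 51 bases before the start, at the last printed base and past it, so neither is printed whole.
Olfm4: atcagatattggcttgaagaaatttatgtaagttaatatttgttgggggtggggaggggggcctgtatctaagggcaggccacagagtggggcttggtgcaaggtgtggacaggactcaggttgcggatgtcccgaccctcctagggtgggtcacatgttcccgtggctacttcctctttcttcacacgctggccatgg
Ces2a: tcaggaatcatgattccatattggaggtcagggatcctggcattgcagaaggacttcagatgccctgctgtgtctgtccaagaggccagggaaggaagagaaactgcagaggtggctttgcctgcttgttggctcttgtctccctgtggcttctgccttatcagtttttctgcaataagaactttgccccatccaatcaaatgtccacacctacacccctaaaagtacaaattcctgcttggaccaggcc
Areg: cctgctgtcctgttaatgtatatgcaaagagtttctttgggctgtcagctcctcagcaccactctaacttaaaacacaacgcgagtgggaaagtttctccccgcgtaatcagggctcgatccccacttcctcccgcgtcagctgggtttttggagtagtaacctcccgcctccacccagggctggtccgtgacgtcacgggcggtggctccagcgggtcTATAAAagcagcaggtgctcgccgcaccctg
Bex4: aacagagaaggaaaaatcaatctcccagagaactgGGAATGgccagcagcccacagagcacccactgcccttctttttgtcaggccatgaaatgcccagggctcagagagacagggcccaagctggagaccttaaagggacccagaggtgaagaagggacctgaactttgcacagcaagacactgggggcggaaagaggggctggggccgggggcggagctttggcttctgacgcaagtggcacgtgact

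The letters searched were TATAAA for the TATA box, GGAATG for TEAD factors, CTTTGAT for TCF/LEF factors and, by name, the kappa B motif, on both strands of the 250 bases before each start. The TATA box was found in 27.6% of 58 promoters of the genes lower at p1 in SC cells, in 17.3% of 52 promoters of the genes higher at p1 and in 6.29% of 10311 promoters of all genes tested (12.4% of all 32851 promoters in the table). The TEAD motif was found in 6.90%, 11.5% and 10.5% (12.6%), the TCF/LEF motif in 1.72%, 0% and 2.18% (3.21%) and the kappa B motif in 5.17%, 9.62% and 4.56% (3.9%). In 38 promoters of genes under 1 CPM in ENR-organoids and of at least 20 CPM in a Hyper-organoid library, to which Bex4 belongs, the TATA box was found in 13.2%, the TEAD motif in 23.7%, the TCF/LEF motif in 0% and the kappa B motif in 2.63%. The median promoter held 6 CG dinucleotides among genes lower at p1, 11 among those higher at p1, 16 among all genes tested and 6 among all promoters in the table. Of the 62 and 49 genes, 46 and 38 had a promoter in the table. These shares are descriptions of letters and say nothing of binding.

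Of the 15 genes named as highest at p1, Olfm4 had the largest excess in SC cells. Olfm4 (ENSMUSG00000022026, chr14:79984081-80023139) had 630 CPM at p1 (Poisson 95% interval 623 to 637), 36.5 CPM at p3 (34.6 to 38.5) and 22.03 CPM at p6 (20.8 to 23.3). ENR-organoids had 3738, 2977 and 4336 CPM, and -VE-organoids 2462 CPM at p1 and 1768 CPM at p6. The p1 Hyper-organoids thus lay between the other media and the later Hyper-organoids, with a log2 difference of -4.78 at p6 from p1, and TA cells showed the same order with 662, 41.9 and 23.2 CPM.

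At p1 most SC cells held Olfm4, and the goblet cell share was also highest there. With every cell thinned to 10000 UMIs, 75.7% (73.1 to 78.2) of SC cells held an Olfm4 UMI at p1, 9.78% (7.86 to 12.0) at p3 and 7.12% (5.85 to 8.56) at p6, against 94.7% to 98.7% in ENR-organoids. In goblet cells of the same libraries the shares were 30.5%, 2.42% and 2.09%, with median depths of 36431, 34857 and 28376 UMIs. Goblet cells of ENR-organoids gave 44.6%, 32.8% and 66.0% at p2, p3 and p7, and those of -VE-organoids 54.3% at p1 and 42.9% at p6. Goblet cells are thus no reference without Olfm4. Without thinning, 88.0%, 18.99% and 13.9% of SC cells held Olfm4. The median SC cell held 16 Olfm4 UMIs at p1, 0 at p3 and p6 and 91 to 158 in ENR-organoids. The 10% of SC cells with the most Olfm4 held 37.2% of its UMIs at p1, 92.4% at p3 and 95.02% at p6.

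The other stem cell genes moved far less. Lgr5, an R-Spondin receptor by which intestinal stem cells are usually marked, had 161, 122 and 163 CPM at p1, p3 and p6 in SC cells, and the hyaluronan receptor Cd44 had 90.6, 85.5 and 84.4 CPM. Ascl2, a transcription factor of stem cell identity, had 40.4, 24.0 and 24.6 CPM. Of 31 crypt base stem cell genes past 5 CPM, 0 were at least 2-fold higher and 2 lower at p6 than at p1, with a median log2 difference of -0.10, where over all genes 97 were higher (0.955%), 88 lower (0.866%) and the median was -0.01. The 2 were Olfm4 and the sodium channel subunit gene Scn2b, at -1.04. At p3 against p1, 4 of the 31 were lower, where 0.915% of all genes were. Beside Olfm4 these were Tnfrsf19 and Fstl1, both at -1.22, and Rgmb at -1.03.

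**Figure D2:**
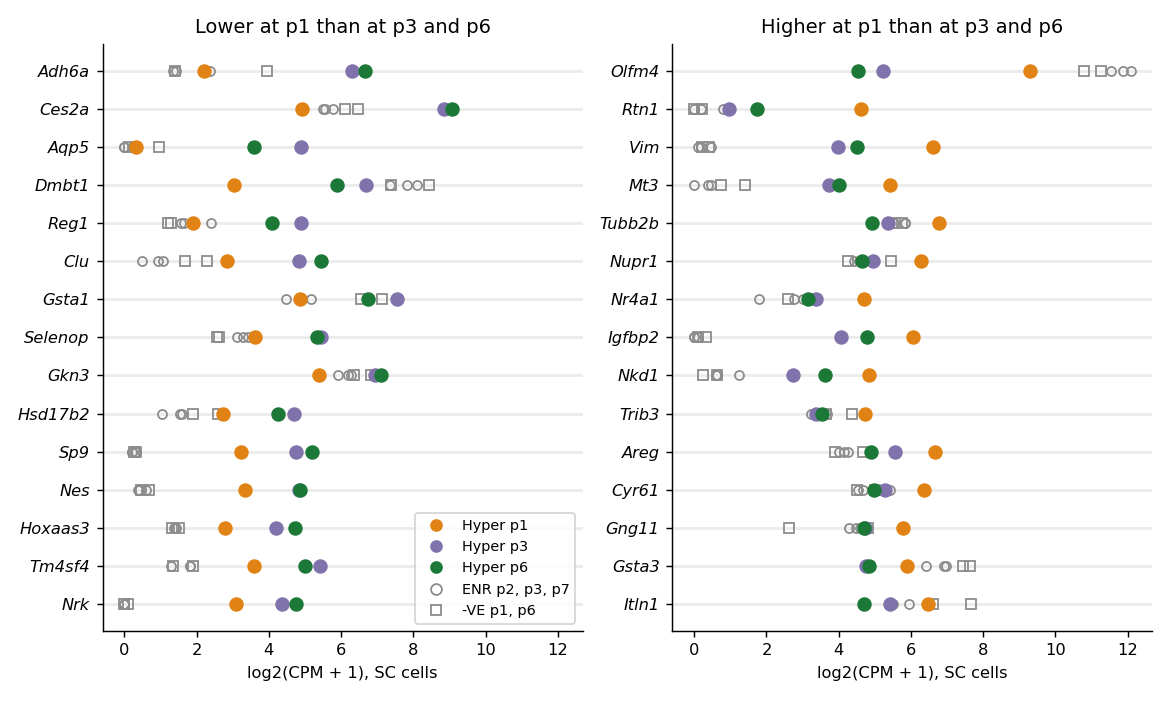
Levels as log2(CPM + 1) in SC cells (x axis) of the 15 genes named as lowest (left) and the 15 named as highest (right) at p1, with filled points for Hyper-organoid libraries, open circles for the 3 ENR- and open squares for the 2 -VE-organoid libraries. The p3 and p6 points lie on the same side of p1 in every gene shown, which the choice of genes fixes, and Olfm4 at p1 lies between later Hyper-organoids and the other media.

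The genes lowest at p1 were named by the smaller of their log2 differences from p3 and p6, and included enzymes and secreted proteins of mature epithelium. Ces2a (chr8:104734003-104741634), a carboxylesterase, had 29.1 CPM at p1 (27.6 to 30.6), 463 at p3 (456 to 470) and 541 at p6 (535 to 547). ENR-organoids had 44.4 to 53.7 CPM and -VE-organoids 87.7 and 67.6 CPM, so p1 lay below every other library and the later Hyper-organoids above every other library. Thinned, 15.4% of SC cells held it at p1, 69.0% at p3 and 73.8% at p6, and 7.79%, 31.5% and 29.8% of goblet cells. Close paralogs of Ces2a can share UMIs with it.

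Adh6a, an alcohol dehydrogenase, had 3.64 CPM at p1, 78.3 CPM at p3 and 101 CPM at p6 in SC cells. The water channel gene Aqp5 had 0.261, 28.7 and 11.1 CPM. Adh6a had at most 4.19 CPM in ENR- and 14.3 CPM in -VE-organoids, and Aqp5 at most 0.162 and 0.959 CPM, so the later Hyper-organoids lay above both other media. Dmbt1, a secreted mucosal defence protein, behaved differently beside the other media: it had 7.19, 102 and 57.7 CPM in Hyper-organoids but 163 to 274 CPM in ENR- and 167 and 343 CPM in -VE-organoids. At p1 Dmbt1 thus lay below every other library.

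Further genes lower at p1 had smaller differences, with the smaller of the log2 differences between 1.28 and 2.17 in size. The lectin gene Reg1 had 2.77, 28.4 and 16.01 CPM and the glutathione transferase gene Gsta1 28.1, 187 and 106 CPM. Selenop, the selenium carrier, had 11.4, 42.2 and 39.7 CPM, and Gkn3, a gastrokine, 40.9, 121 and 137 CPM. The steroid dehydrogenase gene Hsd17b2 had 5.60, 25.2 and 18.1 CPM and Tm4sf4, a tetraspanin-like membrane protein, 10.97, 42.1 and 30.9 CPM. Genes not usual for adult gut epithelium also belonged here. Sp9, a zinc finger transcription factor, had 8.44, 25.9 and 35.6 CPM, Nes (nestin, an intermediate filament) 9.06, 27.3 and 28.2 CPM and the kinase gene Nrk 7.53, 19.7 and 25.9 CPM, all under 1 CPM in every ENR- and -VE-organoid library. Hoxaas3, an RNA antisense to HoxA genes with which it overlaps, had 5.93, 17.5 and 25.4 CPM.

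Several of the genes highest at p1 after Olfm4 were near 0 in ENR-organoids. Vim (vimentin, the mesenchymal intermediate filament) had 96.7 CPM at p1, 14.8 at p3 and 21.8 at p6, against at most 0.387 CPM in ENR-organoids. Rtn1, a reticulon of the endoplasmic reticulum, had 23.8, 0.965 and 2.35 CPM, and the growth factor binding protein gene Igfbp2 65.8, 15.8 and 26.5 CPM. The metallothionein gene Mt3 had 41.9, 12.4 and 14.97 CPM. Thinned, 31.2% (28.5 to 34.1) of SC cells held Vim at p1, 5.89% at p3 and 7.80% at p6. Goblet cells of the same libraries gave 29.2% (22.2 to 37.1), 5.65% and 8.38%, so the SC share cannot be told from the level in that class, and Vim is not read here as a gene of SC cells. Markers of stromal cells summed to 1.89, 1.57 and 2.39 CPM in SC cells. The collagen genes Col1a2 and Col3a1 had 0 CPM in SC cells of all 3 libraries, while other members were detected at low levels. Col1a1 had 0.301, 0.386 and 0.597 CPM, Pdgfra 0.321, 0.138 and 0.135 CPM and Dcn 0.141, 0.0551 and 0.0385 CPM.

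The other 10 named genes were of several kinds. Areg, a ligand of the EGF receptor, had 101, 46.0 and 28.6 CPM, and Cyr61, a matrix protein induced by YAP, 80.7, 37.6 and 30.6 CPM. Nkd1, a Wnt feedback inhibitor, had 27.6, 5.65 and 11.3 CPM. The stress response genes Nupr1 and Trib3 had 76.6, 29.8 and 23.8 CPM and 25.3, 9.26 and 10.7 CPM. The immediate early gene Nr4a1 had 25.01, 9.34 and 7.80 CPM. The remaining named genes, Tubb2b (a tubulin), Gng11 (a G protein subunit), Gsta3 (a glutathione transferase) and Itln1 (a Paneth and goblet cell lectin), had log2 differences from the nearer of p3 and p6 between 1.05 and 1.40.

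Beside the ENR-organoids the genes of p1 fell into several kinds. Of the 62 genes lower at p1 in SC cells, 32 had an ENR-organoid library within 2-fold of p1, 25 lay more than 2-fold lower still in all ENR-organoids and 5 more than 2-fold higher. Of the 49 genes higher at p1, 17 had an ENR-organoid library within 2-fold of p1, 30 lay more than 2-fold below p1 in all ENR-organoids and 2 more than 2-fold above it. Of the 62 and 49 genes, 21 and 13 were under 1 CPM in every ENR-organoid library, where log2(CPM + 1) makes differences small. The genes were chosen by their p1 level, and the same counts were not made over all genes. Nothing is therefore read from these counts.

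The injury markers Clu, Ly6a and Anxa1 of the study were all lowest at p1 but were not all highest at the same passage. Clu (ENSMUSG00000022037, chr14:65968483-65981547), a secreted chaperone, had 6.19 CPM at p1 (5.51 to 6.92), 27.4 at p3 (25.7 to 29.1) and 42.9 at p6 (41.1 to 44.7) in SC cells, and at most 1.08 CPM in ENR-organoids. Ly6a (chr15:74994877-74998031) had 13.4 CPM at p1 (12.4 to 14.4), 76.9 at p3 (74.1 to 79.8) and 22.6 at p6 (21.3 to 23.9), and related Ly6 genes can share its UMIs. At p1, 51.6% of its 665 UMIs lay in 10 of 1126 SC cells, a spread that the interval does not cover. In TA cells Ly6a had 3.75, 60.4 and 20.3 CPM, beside 4.09 and 7.07 CPM in -VE-organoids at p1 and p6. Its log2 difference at p6 from p1 was 0.72 in SC and 2.17 in TA cells. Clu was highest at p6 and Ly6a at p3. Anxa1, an annexin, had 9.10, 21.003 and 12.6 CPM, with the p3 library 1.12 above p1 and 0.69 above p6 on the log2 scale.

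Reg3b and Reg3g were highest at p3 and lowest at p1. Reg3b (chr6:78370657-78373466) had 196, 609 and 432 CPM and its close copy Reg3g 290, 888 and 599 CPM, against at most 1.38 and 14.4 CPM in ENR-organoids. The neuronal membrane protein gene Basp1 stayed low at 4.34, 2.12 and 2.89 CPM. The transcription factor gene Tead2, at 45.3, 29.5 and 44.0 CPM, and the junction protein gene Cxadr, at 65.9, 66.0 and 68.2 CPM, differed by under 2-fold.

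**Figure D3:**
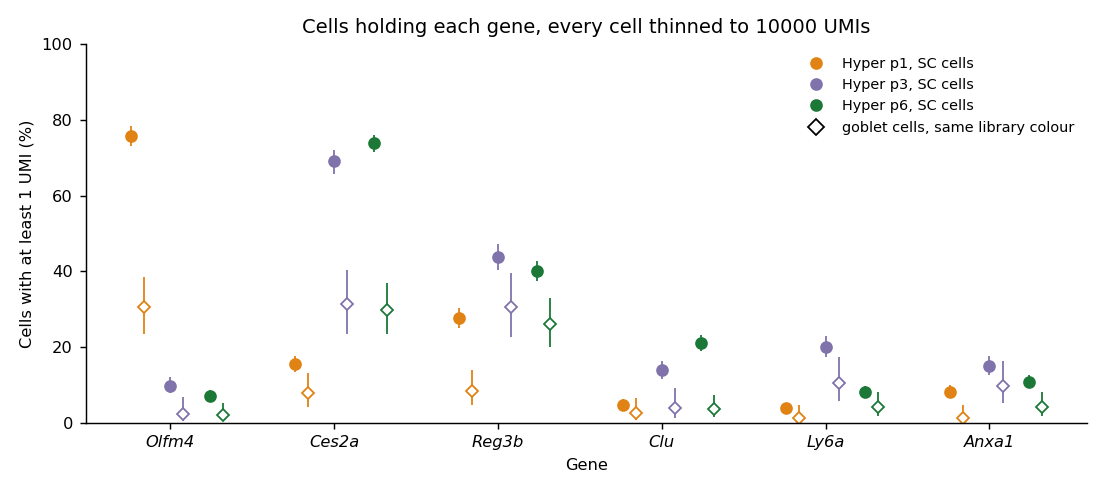
Share of SC cells (filled circles) and goblet cells (open diamonds) of each Hyper-organoid library with at least 1 UMI of the gene (y axis, percent), after thinning every cell to 10000 UMIs, with exact binomial 95% intervals. Olfm4 was in 75.7% of SC cells at p1 and 7.12% at p6, Ces2a in 15.4% and 73.8%, and Clu, Ly6a and Anxa1 stayed at or under 20.9% at every passage.

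Each of the injury markers was found in a minority of SC cells at this depth. Thinned, Clu was found in 4.74% of SC cells at p1 (3.57 to 6.16), 13.9% at p3 (11.6 to 16.4) and 20.9% at p6 (18.9 to 23.1), against 2.60%, 4.03% and 3.66% of goblet cells, so that at p1 the SC and goblet intervals overlapped. Ly6a was found in 3.85%, 20.0% and 8.08% of SC cells and in 1.30%, 10.5% and 4.19% of goblet cells, with intervals that overlapped at p1 and p6 but not at p3. Anxa1 was found in 8.24%, 15.1% and 10.8% of SC cells and in 1.30%, 9.68% and 4.19% of goblet cells, with intervals that overlapped at p3 (12.7 to 17.7 and 5.10 to 16.3). Reg3b was found in 27.6%, 43.8% and 40.04% of SC cells and in 8.44%, 30.6% and 26.2% of goblet cells, so both classes had more holding cells at p3 and p6 than at p1. Without thinning the SC shares were 13.6%, 30.0% and 35.3% for Clu and 9.33%, 33.9% and 16.5% for Ly6a. The UMIs were concentrated: the 10% of SC cells with the most Clu held 87.0%, 76.7% and 73.6% of its UMIs, and 1 SC cell at p3 held 147 Ly6a UMIs while the median SC cell held 0. Cells left out of the SC thinning for under 10000 UMIs numbered 9, 25 and 20. In thinned -VE-organoids at p1 and p6, Clu was found in 1.81% and 2.78% of SC cells and Ly6a in 0.906% and 2.88%. Anxa1 was found there in 0.453% and 1.49% and Reg3b in 0.151% and 0.0994%. For Clu and Ly6a the -VE-organoid p6 intervals (1.86 to 4.00 and 1.94 to 4.11) overlapped those of Hyper-organoids at p1. For Ly6a the latter was 2.80 to 5.15.

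Of 24 measured genes of the revival and fetal-like list, 6 were at least 2-fold higher at p3 than at p1 (1.06% over all genes) and 1 lower, with a median log2 difference of 0.27 beside -0.07 over all genes. The 6 were Clu, Anxa1, Ly6a, Reg3b, Reg3g and S100a6, and the lower gene was Areg. At p6 against p1, 3 were higher and 1 lower, with a median of 0.07. Of 45 measured genes of the study's regenerative up-list, 6 were higher and 3 lower at p3 (1.06% and 0.915% of all genes), with a median of -0.08, and 2 were higher and 4 lower at p6 (0.955% and 0.866%), with a median of -0.02. In TA cells, of 42 measured genes 4 were higher and 2 lower at p3, with a median of -0.05, and 3 were higher and 1 lower at p6, with a median of 0.05. Of all 10077 genes measured in TA cells, 84 were higher and 84 lower at p3, and 99 higher and 68 lower at p6. The medians of the study's up-list lay near 0 while its counts went both ways. Of 47 measured genes of the study's down-list in SC cells, 3 were higher and 3 lower at p3 (1.06% and 0.915% of all genes). At p6, 3 of them were higher and 4 lower (0.955% and 0.866%). Ces2a, higher at p3 and p6, and Itln1 and Gng11, higher at p1, belong to that down-list.

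Genes in which the p3 library stood apart were fewer. S100a6, a calcium-binding protein, had 24.9 CPM at p1, 195 at p3 and 48.9 at p6, and Ceacam1, an adhesion molecule, 15.5, 50.8 and 22.8 CPM. Lpcat4, a lysophospholipid acyltransferase, had 18.1, 5.15 and 20.4 CPM, and Tmem267, a membrane protein gene, 16.2, 4.82 and 21.7 CPM. The last pair was also low in the p3 ENR-organoids of the same origin, at 1.70 and 4.19 CPM against 9.14 to 15.96 CPM at p2 and p7. Rpgrip1, a ciliary protein gene, was higher in both p3 libraries, at 32.7 CPM where the medium was Hyper and 33.5 CPM where it was ENR, while the other libraries of these media had 14.3 to 17.8 CPM. Of the 14 genes lower in the p3 Hyper-organoids, 6 were also lower in the p3 ENR-organoids (42.9%, and 35.3% of the 17 there). These were Lpcat4, Tmem267, Adcy1, the gene model Gm8797 and the Y-linked genes Ddx3y and Eif2s3y, and nearly all SC cells of both p3 libraries lacked Y-linked UMIs. Of the 17 higher genes, 1 was also higher there (5.88%). It was AY036118 and not Rpgrip1, whose excess in the p3 ENR-organoids was under 2-fold in SC cells. In TA cells 7 of the 11 lower genes (63.6%) and 3 of the 10 higher genes (30.0%) were shared, with Rpgrip1 among the latter. Igfbp3, with 18.0, 5.51 and 20.3 CPM, was under 1 CPM in every ENR-organoid library.

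The p6 library was marked by less Oit1, Prap1 and Cdkn2a and by more Cym and Peg3. Oit1, a secreted protein gene, had 48.4, 38.1 and 7.74 CPM and stood at 64.1 to 73.2 CPM in ENR-organoids. Prap1, a secreted epithelial protein gene, had 87.9, 91.7 and 31.8 CPM. Cdkn2a (chr4:89274471-89294653), which encodes the cell cycle inhibitors p16 and p19ARF, had 14.6 CPM at p1 (13.6 to 15.7), 29.1 at p3 (27.4 to 30.9) and 4.51 at p6 (3.95 to 5.12), and at most 0.243 CPM in ENR-organoids. Thinned, 11.8%, 17.0% and 2.94% of SC cells held Cdkn2a, and 9.74%, 20.2% and 5.24% of goblet cells, so SC cells did not exceed goblet cells beyond counting error. In goblet cells the intervals at p1 (5.55 to 15.6) and p6 (2.54 to 9.42) overlapped. The imprinted gene Peg3 had 12.3, 21.3 and 47.6 CPM.

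Cym, the gene of the gastric protease chymosin, had 1.65 CPM at p1, 0.606 at p3 and 56.8 at p6 in SC cells, and its p6 level came from few cells. Of 2949 Cym UMIs at p6, 78.0% lay in 10 of 1481 SC cells and 877 in a single cell. Thinned, 5.00% (3.94 to 6.24) of SC cells held it at p6 and 0.537% at p1, with 0.524% of goblet cells at p6. Cym was named by the rule, and its counts per cell were examined after its level was seen. The p3 TA cells had 7.46 CPM, so there the excess of p6 over p3 was 2.53 on the log2 scale, against 5.17 in SC cells. Of the 334 Cym UMIs of p3 TA cells, 266 lay in a single cell, so this smaller excess rests on that cell.

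S phase and mitosis genes stayed within 2-fold over the passages, and so did 18 of 19 measured cell cycle inhibitor, cyclin D and p53 target genes, all but Cdkn2a. None of 24 S phase genes and none of 22 mitosis genes differed by 2-fold between any pair of Hyper-organoid libraries in SC cells, and the medians at p6 against p1 were -0.08 and -0.17. All 13 measured Tead family and Hippo genes likewise stayed within 2-fold. So did all 21 measured genes of PRC2, histone H3K27 demethylases and histone deacetylases, all 18 measured glycolysis genes and all 19 cholesterol synthesis genes. Over all genes, too, few passed 2-fold: at p6 against p1 0.955% were higher and 0.866% lower, so that 0 members in lists of this size is near the background and no result about these lists. All 6 measured Bex and Tceal genes also stayed within 2-fold, with Bex4 at 187, 247 and 286 CPM.

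Of 39 Hox genes, which set position along the body axis, 6 reached 5 CPM in a library. Some passed this minimum only through p3, as Hoxb8 and Hoxb9 did, so the counts lean toward difference. Of the 6, 5 were at least 2-fold higher at p3 than at p1 and 3 at p6, where 1.06% and 0.955% of all genes were. The median log2 differences of these 6 were 1.44 and 1.01, which carry the same limit. Hoxa7 had 5.22, 18.0 and 13.2 CPM, Hoxa5 3.92, 9.37 and 13.1 CPM, Hoxb8 0.422, 6.53 and 1.79 CPM and Hoxb9 0.321, 5.29 and 1.73 CPM. All Hox genes together summed to 22.9, 73.9 and 52.9 CPM, against 6.08 to 9.95 CPM in ENR-organoids, so that p1 lay between. In -VE-organoids the sum was 11.9 CPM at p1 and 5.84 CPM at p6.

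Of 20 Wnt targets and feedback regulators, 0 were higher and 3 lower at p6 than at p1, and 0 higher and 4 lower at p3, with medians of -0.23 and -0.43. Of all genes 0.866% and 0.915% were lower, with medians of -0.01 and -0.07. Wnt3 reached the minimum of 5 CPM only at p1, where it was high, and Sfrp5 among Hyper-organoids only there, so these counts lean toward lower values. Sfrp5, a secreted Wnt antagonist, had 13.8, 0.744 and 0.770 CPM, and the ligand gene Wnt3 8.98, 1.21 and 1.89 CPM. Tnfrsf19, a receptor of crypt base cells, had 32.7, 13.5 and 18.9 CPM. Axin2, the usual readout of the pathway, had 123, 85.4 and 91.9 CPM and stayed within 2-fold. Of 20 stress and immediate early genes, 4 were lower at p6 and 3 at p3 (0.866% and 0.915% of all genes), and none was higher. Atf3 had 113, 64.3 and 44.3 CPM and Egr2 10.9, 4.69 and 2.79 CPM. Among Hyper-organoids Egr2 reached 5 CPM only at p1, where it was high, so the counts of this list can lean toward lower values too. The median of this list was -0.52 at p6 against p1 in Hyper-organoids, -0.40 in -VE-organoids and 0.11 at p7 against p2 in ENR-organoids.

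Markers of mature cells differed in SC cells too. Paneth cell markers summed to 154, 76.7 and 54.5 CPM at p1, p3 and p6 (236 to 348 CPM in ENR-organoids), and of 6 measured members 3 were lower at p6 than at p1 (0.866% of all genes). Lyz1 (lysozyme) had 28.4, 14.2 and 7.80 CPM in SC cells and 6811, 3522 and 2412 CPM in goblet cells of the same libraries. Enterocyte markers summed to 322, 627 and 406 CPM (687 to 737 CPM in ENR-organoids), and of 9 measured members 4 were higher at p3 and 3 at p6 (1.06% and 0.955% of all genes). Fabp1, a fatty acid binding protein, had 33.4, 223 and 77.9 CPM. Goblet cell markers summed to 219, 413 and 341 CPM. Of these, Tff3 had 28.6, 54.1 and 47.3 CPM in SC cells and 6303, 11650 and 11358 CPM in goblet cells. For Lyz1 and Tff3 the SC values thus had the same order over the passages as those of goblet cells. Whether such transcripts came from the SC cells themselves was not tested. These sums differed along with the genes described above, and their part in the differences was not tested.

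**Figure D4:**
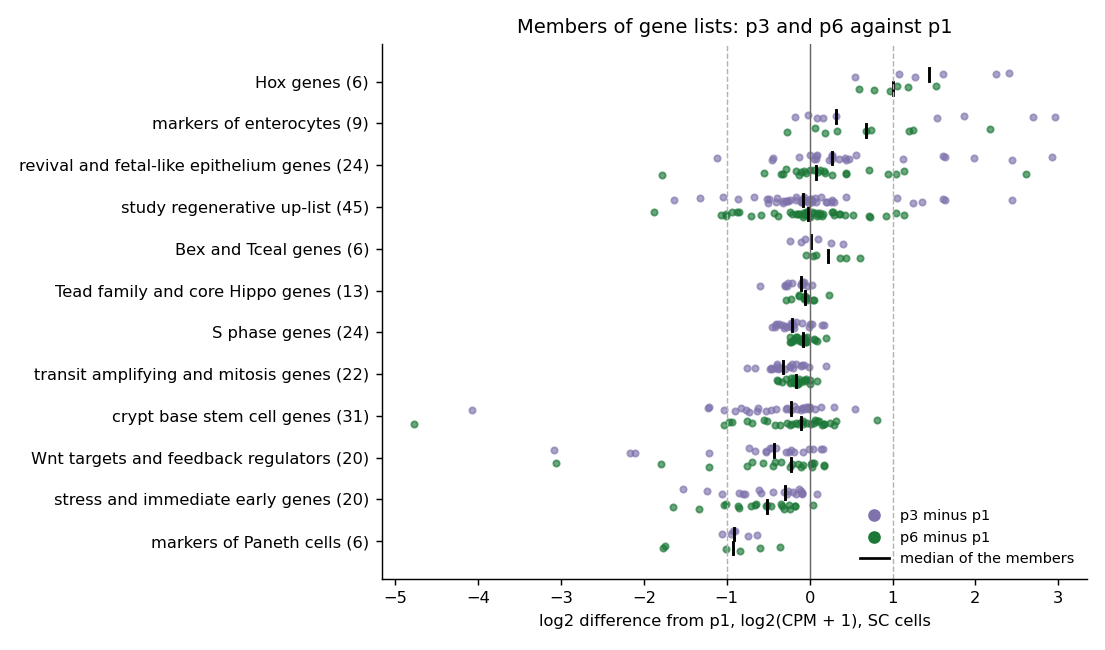
Each point is a member of a gene list (y axis, with the number of members of at least 5 CPM) and its log2 difference from p1 in SC cells (x axis), at p3 in purple and at p6 in green, with black bars at the medians and dashed lines at 2-fold. The 6 of 39 Hox genes that reached the minimum, some only through p3, lie to the right with medians of 1.44 and 1.01. Paneth markers lie to the left, and S phase, mitosis and Hippo genes within the dashed lines.

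A further set was near 0 in ENR-organoids and on in at least 1 Hyper-organoid library. In SC cells 39 genes had under 1 CPM in every ENR-organoid library and at least 20 CPM in a Hyper-organoid library. Of these, 30 had at least 10 CPM in all 3 Hyper-organoid libraries and 21 varied by under 2-fold over the passages. Besides Bex4 these included the lactate dehydrogenase gene Ldhb, at 72.9, 75.9 and 60.9 CPM, Tceal8, at 47.8, 51.4 and 50.3 CPM, and the lipoprotein lipase gene Lpl, at 25.2, 23.04 and 21.2 CPM. The p1 library was lower than both others in 5 and higher than both in 4 of the 39, beside 0.610% and 0.482% of all genes. Nothing is read from any of these counts, those of 30 and 21 included, since a gene could enter through 1 library where it was high, as Rtn1 and Mt3 did through p1 and Aqp5 through p3. In -VE-organoids 32 of the 39 genes stayed under 1 CPM at both passages. The median SC cell held 7, 9 and 9 Bex4 UMIs, and thinned, 71.0%, 85.2% and 90.3% of SC cells and 59.7%, 79.8% and 82.7% of goblet cells held it.

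The libraries differed in sex-linked transcripts. Xist, expressed from the inactive X chromosome of female cells, and 4 Y-linked genes (Ddx3y, Eif2s3y, Kdm5d and Uty) were counted per cell. At p1, 24.0% (21.5 to 26.6) of SC cells held a Y-linked UMI and no Xist UMI and 68.7% held Xist alone, and at p6 23.6% (21.5 to 25.9) and 68.8%. At p3, 0 of 874 SC cells held a Y-linked UMI alone, which allows a share of up to 0.343% by 3 counts of the total (0.421% as the upper end of the exact interval), 2 cells held both, and 97.7% held Xist alone. The p3 ENR-organoids likewise had 0 of 229 such SC cells, which allows up to 1.31% by the same 3 counts, and the other ENR- and -VE-organoid libraries 21.2% to 28.7%. The p1 and p6 libraries thus held both patterns, at similar shares to each other, and the p3 library almost only the Xist pattern, so that sex-linked pattern, origin and passage coincide at p3.

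The levels of named genes were also taken within cells of either pattern. These are subsets of the same cells in which the genes were named, so their likeness to the whole is no separate evidence. Olfm4 had 515 CPM at p1 and 10.97 CPM at p6 in Xist-only cells and 914 and 43.2 CPM in Y-only cells. Ces2a had 28.5 and 506 CPM in Xist-only and 31.5 and 601 CPM in Y-only cells. Within Xist-only cells alone, Ly6a had 16.8, 77.5 and 29.5 CPM at p1, p3 and p6, close to the 13.4, 76.9 and 22.6 CPM over all SC cells.

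A few genes differed between cells of the 2 patterns in the same library. Cym had 80.4 CPM in Xist-only and 1.16 CPM in Y-only SC cells at p6. Cdkn2a had 6.19 and 0.826 CPM, Clu 56.9 and 10.3 CPM and Ly6a 29.5 and 6.61 CPM. At p1 the order was the same in SC cells, with 2.21 and 0.575 CPM for Cym, 16.4 and 9.44 CPM for Cdkn2a, 7.62 and 2.87 CPM for Clu and 16.8 and 5.01 CPM for Ly6a. Such cells share a library and medium, but sex and founding animal cannot be told apart, and the genes were singled out after their values were seen. In TA cells Cym had 66.8 and 14.2 CPM and Clu 45.4 and 14.4 CPM at p6, while at p1 Cym had 0.522 and 2.19 CPM and Clu 4.76 and 4.18 CPM. Cdkn2a had 5.79 and 1.42 CPM in TA cells at p6 but 13.1 and 13.7 CPM at p1. Ly6a had 27.2 and 7.98 CPM at p6 and 3.58 and 2.72 CPM at p1.

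**Figure D5:**
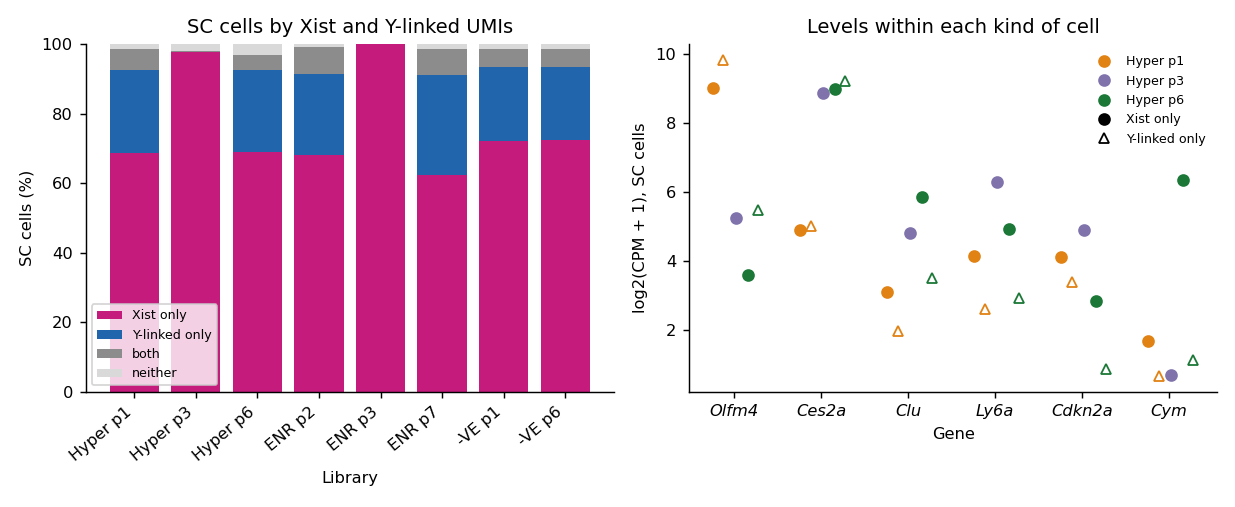
Left, share of SC cells (y axis, percent) of each library holding UMIs of Xist only, of Y-linked genes only, of both or of neither. Right, log2(CPM + 1) in SC cells of 6 genes at p1, p3 and p6 within Xist-only cells (filled circles) and Y-linked-only cells (open triangles): Olfm4 and Ces2a differ between p1 and p6 in both kinds, while Cym at p6 has 80.4 CPM in Xist-only and 1.16 CPM in Y-only cells.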

How the data were processed

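UMI counts per gene and barcode were deposited by the authors as 1 matrix per library, not normalized, with a table of annotated cells. Per the submitters' processing notes they were made with Cell Ranger 3.0.0 (the file headers name 3.1.0) and Seurat 3.1.4 on the mm10 build. Kept cells and classes were the authors'. Every column used was mapped to its library (unmapped: 0).

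UMIs of each class and library were summed (Python 3, pandas, scipy) and divided by their total. Genes of at least 5 CPM in a Hyper- or ENR-organoid library were compared on log2(CPM + 1), and a 2-fold difference was counted. The rule was tested on simulated counts with known folds, which held counting error only and no spread between cultures. Poisson and binomial 95% intervals are exact. TMM factors came from edgeR. No doublet caller was run, doublets stayed in, and leaving out the 5% of cells with the most UMIs was tried instead.

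Named genes were 12 fixed genes and, among genes of at least 20 CPM in a Hyper-organoid library (mitochondrial, ribosomal protein and unnamed genes left out) that stood apart in SC and TA cells alike, the 15 lowest and 15 highest at p1 and up to 8 each way at p3 and p6, plus up to 4 members per gene list with the largest differences. Members and lists were chosen with earlier results of these data known. Vim, Cdkn2a, Cym, Ces2a and Bex4 were added to the per-cell counts, and the split by Xist and Y-linked UMIs was made, after the data were seen. Gene positions are from GENCODE M21 (GRCm38) by gene identifier.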

Additional observations from a re-analysis of the deposited data

Results flagged for a closer look

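Itln1, a lectin of Paneth and goblet cells, moved in opposite directions over the same passages in 2 media. In SC cells it fell by 1.77 on the log2 scale from p1 to p6 in Hyper-organoids (87.9 to 25.1 CPM) and was 1.05 higher at p6 than at p1 in -VE-organoids (95.9 and 200 CPM). The difference between the media was -2.82 on the log2 scale, with 1 library per medium and passage, and it was not tested. ENR-organoids had 44.8 CPM at p2 and 41.4 CPM at p7. In TA cells Itln1 fell by 1.73 in Hyper-organoids while its change in -VE-organoids stayed under 2-fold, so the flag was met in SC cells only.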

How the results depend on the processing

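With 1 library per passage, neither a test nor the omission of a library was possible, and counting intervals do not cover the spread between cultures. Each Hyper-organoid library has an ENR-organoid library of its set, but differences within sets were not taken. The comparisons are between passages of 1 library each and come from no test. Of 66 recomputed counts of genes standing apart, 56 stayed within 1.5 times their value, and p1 held the most such genes in both classes under every alternative. With a minimum of 20 CPM the counts at p1, p3 and p6 were 53, 15 and 8 in SC cells and 55, 10 and 8 in TA cells. With a minimum of 1 CPM, 30 genes stood apart at p6 in SC cells and 34 at p3 in TA cells. With a pseudocount of 0.1 CPM, 28 and 32 stood apart at p6 in SC and TA cells. All 12 recomputed class shares stayed within their intervals. All 60 recomputed shares of cells holding Olfm4, Clu, Ly6a, Anxa1 or Reg3b moved beyond theirs. The share of SC cells with Olfm4 at p1, p3 and p6 was 88.0%, 18.99% and 13.9% without thinning and 65.5%, 5.89% and 4.59% at a minimum of 2 UMIs. Of 1938 recomputed log2 ratios of named genes, 300 moved beyond their counting interval and 0 of those past 2-fold changed sign. The alternatives by Xist and Y-linked UMIs were chosen after seeing the data. In Y-only cells the ratio of Cym at p6 to p1 was 0.45 on the log2 scale, in place of 4.45.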
